A study of Mus musculus with 8 samples.

Results

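Macrophages and dendritic cells made up 60 of 11831 cells prepared from the ascending thoracic aorta, which is 0.507% (exact Clopper-Pearson 95% interval 0.387 to 0.652). They were chosen by raw UMI counts (unique molecular identifiers, that is, counted RNA molecules). Each barcode had at least 300 genes, at least 900 UMIs and less than 15% mitochondrial UMIs, and 11831 of the 26916 barcodes passed. A cell was taken when Tyrobp, Fcer1g and Csf1r together had at least 2 UMIs, and when C1qa, C1qb and C1qc together had at least 5 or Cd74, H2-Aa and H2-Eb1 together at least 10. Any UMI of Cd79a or Epcam, 10 or more of S100a8 and S100a9, or more than 1 of Cdh5, Kdr and Cldn5 removed it, and those genes mark B cells, epithelium, neutrophils and endothelium. Of the 60 cells, 42 had at least 5 C1q UMIs and are called C1q-positive, and 18 are called C1q-negative, so that 70.0% (56.8 to 81.2) were C1q-positive. A C1q-negative cell could enter only by its MHC class II UMIs.

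The tissue came from 3 aged wildtype mice of 81, 84 and 88 weeks, with no treatment or genetic change named in the labels. Per the labels, collagenase (10 mg/mL) with elastase (1 mg/mL) released the cells over 60 min at 37 °C, which were then strained at 70 µm and cleared of dead cells, and about 15000 were loaded. The mice were pooled after each was marked with a hashtag, an antibody that carries a short DNA barcode, and the deposited reference table ties each barcode to an age. With 1 mouse per age, age and animal cannot be told apart, and the 4 gene expression and 4 hashtag libraries were deposited as 1 matrix with no depth per library. The matrix names no library for a barcode, so barcodes that libraries shared could not be counted.

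The hashtag barcodes are shown because every comparison between animals below rests on reading them.
Hashtag 1, 81 weeks: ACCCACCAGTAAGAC
Hashtag 2, 84 weeks: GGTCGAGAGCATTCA
Hashtag 3, 88 weeks: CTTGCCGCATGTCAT

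Macrophages are phagocytes that live in tissues, the artery wall among them, and clear dead cells, lipid and matrix fragments. They also secrete C1q, the recognition part of the classical complement pathway, which is built from the products of C1qa, C1qb and C1qc. Dendritic cells take up antigen and show it to T cells on MHC class II, and they are commonly divided into conventional cells that carry Xcr1 and Clec9a, conventional cells that carry Cd209a and Clec10a, and plasmacytoid cells that carry Siglech. Macrophages can carry MHC class II as well, and those of the outer layer of arteries are known for Lyve1 and Folr2.

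The promoters of the genes that define the classes are shown as the 250 bases before the start site, 5′ to 3′ on the gene's strand, from RefSeq on GRCm38.p6. Capitals mark GAGGAA on either strand (TTCCTC when read in reverse), the purine-rich core that PU.1 recognises, in the C1q genes. In the MHC class II genes capitals mark CTGATTGG, the Y box of class II promoters. C1qb lies at chr4:136886201-136886450 on the minus strand, C1qc at chr4:136892915-136893164 on the minus strand, H2-Aa at chr17:34287824-34288073 on the minus strand and H2-Eb1 at chr17:34305617-34305866 on the plus strand. The start site used for C1qc lies just inside the gene's RefSeq range, so its window overlaps the outermost bases of the gene.
C1qb: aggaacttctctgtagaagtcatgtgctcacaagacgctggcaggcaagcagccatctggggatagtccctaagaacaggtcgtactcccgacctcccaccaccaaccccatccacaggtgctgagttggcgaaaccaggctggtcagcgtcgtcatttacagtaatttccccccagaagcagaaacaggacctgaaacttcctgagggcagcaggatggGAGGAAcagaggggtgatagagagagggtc
C1qc: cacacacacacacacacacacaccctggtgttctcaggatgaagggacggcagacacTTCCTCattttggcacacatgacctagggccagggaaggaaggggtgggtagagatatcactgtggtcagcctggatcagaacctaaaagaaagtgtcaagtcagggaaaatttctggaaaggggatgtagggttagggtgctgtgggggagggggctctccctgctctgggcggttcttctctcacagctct
H2-Aa: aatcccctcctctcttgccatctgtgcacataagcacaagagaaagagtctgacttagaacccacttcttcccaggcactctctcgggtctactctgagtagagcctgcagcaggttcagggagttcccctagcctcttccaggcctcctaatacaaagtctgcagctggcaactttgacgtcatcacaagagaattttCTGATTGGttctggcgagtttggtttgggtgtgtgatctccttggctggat
H2-Eb1: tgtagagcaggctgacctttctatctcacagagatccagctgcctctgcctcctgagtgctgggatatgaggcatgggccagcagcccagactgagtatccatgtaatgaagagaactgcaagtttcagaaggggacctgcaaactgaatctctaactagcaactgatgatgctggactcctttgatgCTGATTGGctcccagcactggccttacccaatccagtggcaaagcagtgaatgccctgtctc

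The GAGGAA of C1qb began 30 bases before the start site and that of C1qc, on the opposite strand, 193 bases before it. The Y box began 51 bases before the start of H2-Aa and 62 bases before that of H2-Eb1. Of 32841 promoters of the same length searched on both strands, 23.3% held GAGGAA and 3.83% held CTGATTGG. Such matches describe the letters only.

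The 2 classes lay far apart in C1q. The lowest C1q-positive cell had 7 C1q UMIs and the highest C1q-negative cell 3, and 15 of the 18 C1q-negative cells had 0. These are the values that chose the cells and carry no test. C1qa had 1127 UMIs in the C1q-positive cells against 2 in the C1q-negative ones, C1qb 870 against 2, and C1qc 760 against 2. The 3 chains were found together: C1qa and C1qb were in all 42 C1q-positive cells and C1qc in 41, with medians of 24.5, 18.5 and 15.5 UMIs per cell. After each cell was thinned to 900 UMIs, C1qa was still found in 85.7% of the C1q-positive cells and in none of the C1q-negative ones, where 0 of 18 allows a share of up to 16.7%. As a background, a C1qa UMI was in 1.11% of 5509 smooth muscle cells (median 11082 UMIs) and in 0.866% of 2539 T cells (median 4184 UMIs). The T cells of such background shares were chosen by genes that include Rag1 and Cd8b1, so they can include thymocytes.

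Near the other limits, 2 of the 60 cells had exactly 2 UMIs of Tyrobp, Fcer1g and Csf1r, against a median of 20.5. Just outside were 2 cells with 1 such UMI, 2 cells with 5 to 9 MHC class II UMIs, and 1 cell with 3 or 4 C1q UMIs. A further 10 cells met the rest of the rule with 0 UMIs of the 3 lineage genes. Of 70 cells with the UMIs that let a cell in, Cd79a removed 2, Epcam 5 and the endothelial genes 7, with overlap between them.

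**Figure D1:**
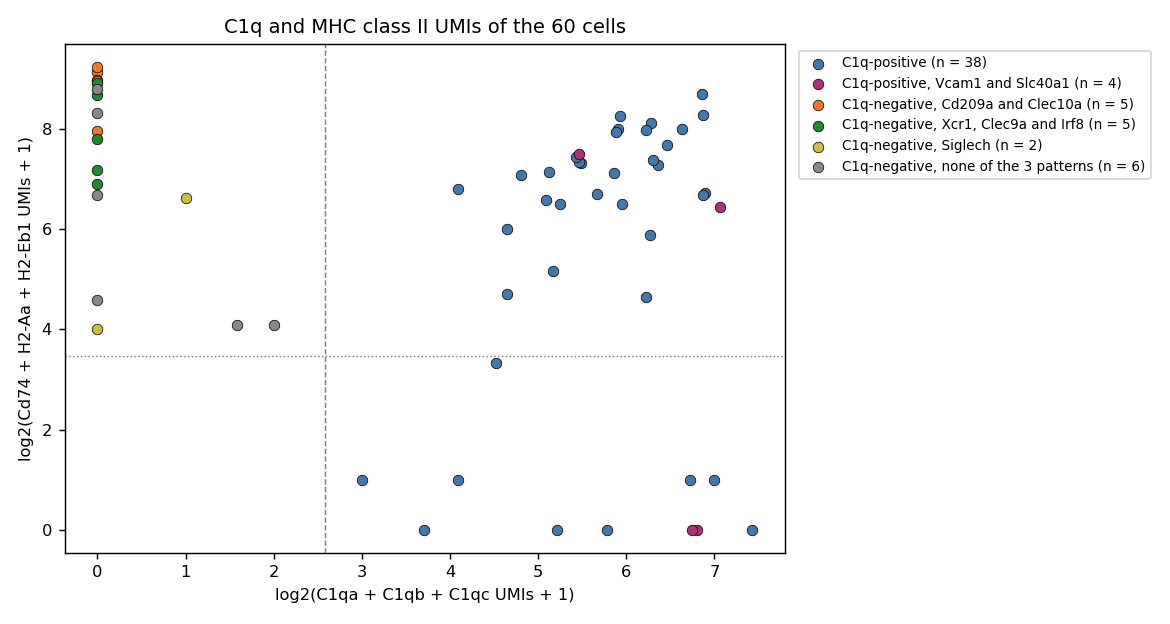
Each point is 1 of the 60 cells, placed by log2 of its C1q UMIs plus 1 and log2 of its Cd74, H2-Aa and H2-Eb1 UMIs plus 1. The dashed line marks 5 C1q UMIs and the dotted line 10 MHC class II UMIs; the C1q-positive cells split into 31 above the dotted line and 11 below it, and the C1q-negative cells sit at 0 to 3 C1q UMIs.

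The cells were found in all 3 mice. The set of 81 weeks held 10 of them among 606 cells (1.65%, 0.794 to 3.01), that of 84 weeks 21 among 2709 (0.775%, 0.480 to 1.18), and that of 88 weeks 17 among 1121 (1.52%, 0.886 to 2.42). C1q-positive cells were 7 of 10, 11 of 21 and 13 of 17 in these sets, and their intervals overlapped widely (34.8 to 93.3%, 29.8 to 74.3% and 50.1 to 93.2%). With 1 mouse per age there is no test between ages, and the intervals cover counting error only.

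The hashtags read well on these cells. Exactly 1 hashtag was called in 48 of the 60 (80.0%, 67.7 to 89.2), against 37.3% (36.4 to 38.2) of the other cells. Only 4 were among the 6805 cells with no hashtag. More than 1 hashtag was called in 8 of the 42 C1q-positive cells (19.0%, 8.60 to 34.1), in 0 of the 18 C1q-negative cells and in 4.94% of the other cells. All 8 were MHC class II-high. They entered no test, because no animal can be given to them.

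RNA of other cell types was present in both classes. At least 3 UMIs of T cell genes were in 12 of the 42 C1q-positive and 2 of the 18 C1q-negative cells, and at least 30 UMIs of Acta2, Myh11 and Tagln in 6 and 4. Over the sets, the 20 T cell and thymocyte markers summed to 392 to 857 counts per 1000000 UMIs (CPM) in the C1q-positive and 227 to 1363 CPM in the C1q-negative cells, with Trac and Ptcra at 0 in the latter. The 10 smooth muscle markers summed to 1148 to 16702 and 1250.1 to 12518 CPM. Both ranges overlapped between the classes. The 12 markers of natural killer and innate lymphoid cells summed higher in the C1q-negative sets, 173 to 289 against 13.1 to 45.9 CPM, through Klrd1 and Klrk1, with Ncr1, Nkg7, Gzma, Gzmb and Prf1 at 0. Of 10 mast cell and basophil markers only Kit was found in the C1q-negative cells, with 12 UMIs against 0. The part of these cell types in the results was not tested. Whether any of the 60 cells came from tissue attached to the aorta, such as thymus, was not tested either. C1q-positive cells were shallower, with a median of 5937 UMIs against 10275, and had more mitochondrial UMIs, 9.02% against 7.10%. The part of depth and of the mitochondrial share in the results was not tested. Doublets were not removed, and 2 cells of each class were called as such.

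Genes that were higher in C1q-positive than in C1q-negative cells included 10 of resident tissue macrophages and 6 of lysosomes. They also included 5 of those listed for iron and haem handling, with Cd163 in both the first and the last group. A small group that included Tmsb10, Napsa and Plbd1 was lower. For this comparison the UMIs of each class were summed in each of the 3 hashtag sets: 7 against 3 cells at 81 weeks, 11 against 10 at 84 weeks and 13 against 4 at 88 weeks. Of 764 genes tested, 41 were higher in the C1q-positive cells (5.37%) and 7 were lower (0.916%), together 6.28%, by edgeR's quasi-likelihood test with the animal as a block, an adjusted p under 0.05 and at least a 2-fold change. The median log2 fold change over all 764 was 0.09. The 16 genes of the selection rule were left out of the test. In summed counts, fewer cells that express a gene and less RNA per cell cannot be told apart. A gene with few UMIs in both classes could not enter, so that counts over tested genes describe only genes with enough UMIs. A gene with too few UMIs in either class entered only through the other, so its direction was fixed by entry. Among the called genes named below this held at least for Maf, Cd163, Hpgd, Cd83, Adgre1, Ms4a7, Fcna and, the other way, Napsa. It also held for Lgmn, Cd63, Mgl2, Tgfbi and Lst1, and the other way for Plbd1. Mrc1, Apoe, Grn and Ifi27l2a had enough UMIs in some C1q-negative sets but not in all 3, so they too needed C1q-positive sets to enter. The adjusted p of such a gene is no independent evidence of its direction.

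Of 20 resident macrophage genes, 16 were tested, 10 were higher, none was lower and 6 did not pass. The median log2 fold change was 4.82 when the 5 genes with no UMI in the C1q-negative cells stand at their lower bound. Those 5 (Pf4, Lyve1, Folr2, Stab1 and Ccl24) passed the filter on low counts only through the C1q-positive cells, so their direction was fixed by entry. The same held for Cd163, and Mrc1 also needed C1q-positive sets to pass the filter. The count of higher genes and the median are therefore descriptions. The list was chosen with earlier results of these data known and is no independent evidence of its direction.

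Pf4, a chemokine of platelets and of resident macrophages, had 3199.5, 2986 and 3094 CPM in the C1q-positive cells of 81, 84 and 88 weeks. It had no UMI in the C1q-negative cells of any set. The 3 positive sets were nearly equal and did not overlap the negative ones. On 600 UMIs against 0, with a floor of 3 counts over the class, Pf4 was at least 190-fold higher (adjusted p = 0.0261). Pf4 was in 81.0% of the C1q-positive cells, or 61.9% after thinning, and in 1.36% of smooth muscle cells.

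Mrc1, the mannose receptor, had 2133, 2787 and 1632 CPM in the C1q-positive sets. In the C1q-negative sets it had 37.9, 59.4 and 223 CPM. The lowest positive set was above the highest negative one, and the fitted log2 difference was 4.69 with a standard error (SE) of 0.72, given below as ± (adjusted p = 0.0350). It was in 90.5% of C1q-positive and 16.7% of C1q-negative cells, 59.5% and 5.56% after thinning, and in 0.563% of smooth muscle cells.

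Folr2, a folate receptor, had 838, 827 and 522 CPM, and Lyve1, a hyaluronan receptor, had 362, 612 and 496 CPM in the same order of sets. Neither had a UMI in the C1q-negative cells. Folr2 was at least 43.7-fold higher (adjusted p = 0.0350) and Lyve1 at least 30.7-fold higher (adjusted p = 0.0382). Within the C1q-positive cells the pair was nested. Lyve1 was in 16 cells, and all 16 also held Folr2, while only 7 of the 26 cells without Lyve1 did.

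Stab1, a scavenger receptor, had 648, 934 and 496 CPM in the C1q-positive cells and was at least 42.1-fold higher (adjusted p = 0.0350). Ccl24, an eosinophil chemoattractant, had 324, 521 and 366 CPM and was higher on 79 UMIs against 0 (adjusted p = 0.0452). Neither had a UMI in the C1q-negative sets. Cd163, the receptor that takes up haemoglobin bound to haptoglobin, had 705, 873 and 888 CPM against 75.8, 0 and 0. Its count ratio was 76.9 on 162 and 2 UMIs (counting interval 20.9 to 640.4, adjusted p = 0.0452). Timd4, a receptor for phosphatidylserine on dead cells, had 30 UMIs against 1 and was too low to be tested. It reached 229, 61.2 and 183 CPM in the C1q-positive sets and 0, 0 and 24.8 CPM in the others.

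Of 23 myeloid transcription factors 7 were tested, and none was lower. Maf, a leucine zipper factor of macrophages, had 705, 1102 and 1058 CPM against 0, 0 and 49.6, a count ratio of 90.2 on 190 and 2 UMIs (24.6 to 750.2, adjusted p = 0.0350). Spi1, which encodes PU.1, had 152, 245 and 366 against 303, 390.4 and 223 CPM, which overlapped, and did not pass (log2 fold change -0.11 ± 0.44, adjusted p = 0.923). Irf8, a factor of dendritic cells that carry Xcr1 and of plasmacytoid cells, had 95.2, 45.9 and 222 CPM against 0, 704 and 273. Its sets overlapped, and the log2 fold change of -0.99 ± 1.11 did not pass (adjusted p = 0.677). Without the set of 84 weeks it was 0.81.

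Further called genes were named singly and form no tested group. Adgre1, which encodes F4/80, had 171, 184 and 418 CPM against 0, 8.49 and 0. Its count ratio was 50.3 on 53 and 1 UMIs (8.65 to 2025, adjusted p = 0.0350). Lyz2, lysozyme of myeloid cells, had 7504, 8651 and 4609 CPM against 833, 662 and 1784. The sets did not overlap (log2 fold change 2.93 ± 0.56, adjusted p = 0.0473). It belongs to the 20 genes of monocyte-derived cells, of which 5 were tested, Lyz2 was higher and S100a6 was lower. Ms4a7, a membrane protein of macrophages, had 171, 444 and 770.4 CPM against 0 in each negative set and was at least 30.7-fold higher (adjusted p = 0.0446). Lst1, a gene of leukocyte-specific transcripts in the MHC region, had 190.4, 306 and 823 CPM against 0, 8.49 and 124 (log2 fold change 3.81 ± 0.71, adjusted p = 0.0452). Fcna, a ficolin that recognises sugars on microbes, had 229, 245 and 287 CPM against 37.9, 0 and 0, a count ratio of 47.5 (8.14 to 1912, adjusted p = 0.04998).

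Of 22 lysosomal genes 16 were tested, 6 were higher and none was lower, with a median log2 fold change of 1.89. Ctsb, cathepsin B, had 1962, 2266 and 2820.2 CPM against 189, 221 and 347. Its log2 fold change was 3.41 ± 0.27 (adjusted p = 0.0247). Lgmn, the protease legumain, had 248, 582 and 379 CPM against 37.9, 25.5 and 0, and Grn, which encodes progranulin, 628, 766 and 836 against 152, 187 and 124. Their log2 fold changes were 4.56 ± 0.73 and 2.44 ± 0.34 (adjusted p = 0.0350 each). The other 3 that rose were Ctsc, Lamp1 and Lamp2, by 2.95, 2.14 and 2.98. Ctsb was also in 92.4% of smooth muscle cells.

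Few of the genes listed for iron and haem handling could be tested. Of 17 genes 6 were tested and 5 were higher: the ferritin chains Ftl1 and Fth1, the biliverdin reductase Blvrb, Cd163 and Hpgd. Hpgd encodes a prostaglandin dehydrogenase, so by its product it is not an iron or haem gene. Ftl1 rose by 1.66 and Fth1 by 1.13 on the log2 scale, and both were abundant in each class. Blvrb rose by 3.86. Hpgd had 457, 429 and 561 CPM against 0, 25.5 and 0, a count ratio of 30.1 (9.98 to 148, adjusted p = 0.0350). Slc40a1, the iron exporter, and Hmox1, the haem oxygenase, had 62 and 23 UMIs in the C1q-positive sets against 1 each and were too low to be tested.

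Of 19 genes linked to lipid-loaded macrophages 8 were tested and 2 were higher. Apoe, the lipid carrier, had 6304, 11208 and 8565 CPM against 37.9, 16.97 and 619.6, a log2 fold change of 6.37 ± 1.19 (adjusted p = 0.0452). Of the 25 Apoe UMIs behind the high C1q-negative value at 88 weeks, 1 cell held 24. Apoe was also in 60.5% of smooth muscle cells and 30.7% of T cells, so a cell with a UMI of it need not express it. Cd63, a lysosomal membrane protein, had 343, 536 and 653 CPM against 37.9, 93.4 and 74.3 (log2 fold change 3.00 ± 0.38, adjusted p = 0.0350). Trem2, the lipid receptor of such cells, had 38.1, 153 and 78.3 CPM in the C1q-positive sets and 0 in the others, and was not tested. Spp1, which encodes osteopontin, had 3 UMIs in the C1q-positive and 1 in the C1q-negative cells, and Gpnmb, a glycoprotein of lipid-laden cells, had 0 in all 60.

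**Figure D2:**
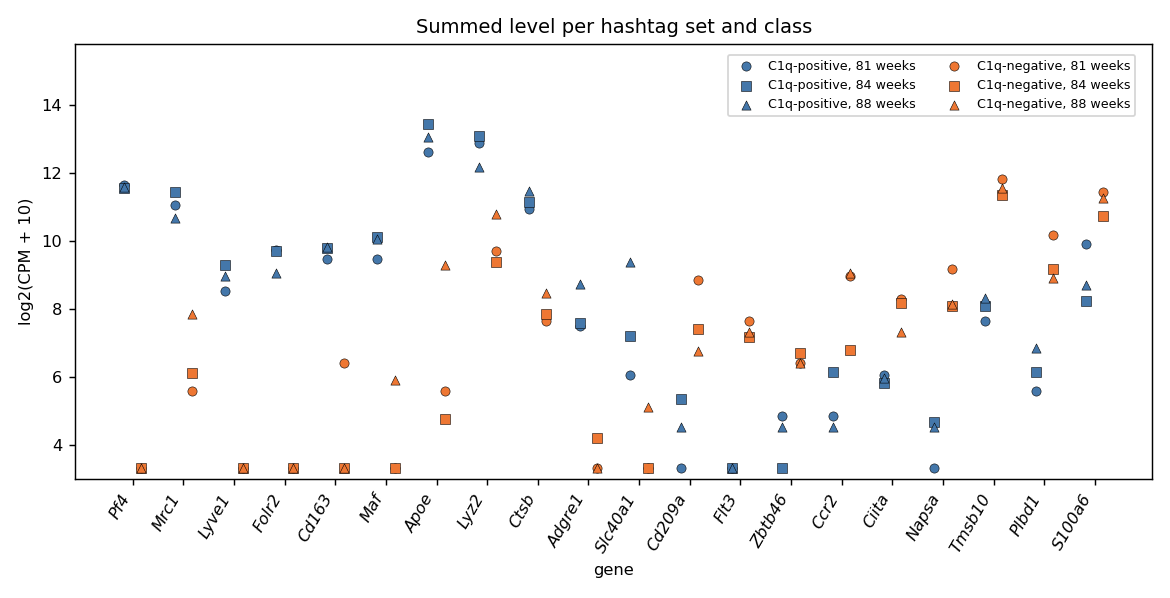
Summed level of 20 genes in each hashtag set, as log2 of CPM plus 10, in C1q-positive cells (blue) and C1q-negative cells (orange). Points at the bottom of the plot are sets with no UMI; Pf4, Lyve1 and Folr2 have no UMI in any C1q-negative set, and Flt3 has none in any C1q-positive set.

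The genes that were lower in the C1q-positive cells included Tmsb10, an actin-binding thymosin, with 190.4, 260.3 and 313 CPM against 3599, 2622 and 3024. Its log2 fold change was -3.41 ± 0.30 (adjusted p = 0.0247), and the sets of each class lay close together. Napsa, an aspartic protease, had 0, 15.3 and 13.1 CPM against 568, 263 and 273. It was higher in the C1q-negative cells by a count ratio of 30.02 on 57 and 2 UMIs (7.94 to 254, adjusted p = 0.0369). Plbd1, a phospholipase B-like protein, had 38.1, 61.2 and 104 CPM against 1136, 569 and 471 (log2 fold change -3.07 ± 0.56, adjusted p = 0.0452). S100a6, a calcium-binding protein, had 952, 291 and 405 CPM against 2766, 1680.3 and 2454 (log2 fold change -2.04 ± 0.32, adjusted p = 0.0350). Cd52, a small surface glycoprotein of leukocytes, had 571, 628 and 809.5 CPM against 2652, 2257 and 1611 (adjusted p = 0.0497), and Rpsa, a ribosomal protein, was lower by a log2 fold change of -1.29 ± 0.20 (adjusted p = 0.0350).

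Antigen presentation did not divide the classes in the same way. Of 19 genes 10 were tested, and only Lgmn, which is also a lysosomal gene, passed. H2-Ab1, an MHC class II chain that the rule did not use, had 3828, 3277 and 3956 CPM against 11933, 6339.5 and 3197. The classes overlapped, and the log2 fold change of -0.59 ± 0.37 did not pass (adjusted p = 0.392). C1q-negative cells had to carry MHC class II to be chosen, so its level in them was set by the rule in part. Ciita, the class II transactivator, had 57.1, 45.9 and 52.2 CPM against 303, 280.1 and 149. Its sets did not overlap, but its 10 and 47 UMIs were too few to be tested. Of all tested genes, 38.9% did not overlap between the classes.

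Several genes that define dendritic cells, Flt3, Zbtb46, Clec9a and Cd209a, had more UMIs in the C1q-negative cells, at counts too low for the test. Flt3, the receptor that drives their development, had 189, 136 and 149 CPM in the C1q-negative sets and no UMI in the C1q-positive ones. It was at least 9.48-fold higher in the C1q-negative cells, and 12 of these 18 cells held it, against 0.118% of T cells. Zbtb46, a factor of conventional dendritic cells, had 75.8, 93.4 and 74.3 CPM against 19.0, 0 and 13.1. Its count ratio was 8.43 (1.98 to 75.5) on 16 and 2 UMIs, and 7.08% of smooth muscle cells held a UMI of it. Ccr2, the receptor that brings monocytes into tissue, had 492, 102 and 520.5 CPM against 19.0, 61.2 and 13.1, on 46 and 6 UMIs. Cd209a had 455, 161 and 99.1 CPM against 0, 30.6 and 13.1, a count ratio of 12.3 (3.87 to 62.4). The sets of Flt3, Zbtb46, Ccr2 and Cd209a did not overlap, but neither did those of 38.9% of all tested genes, to which these 4 did not belong. Itgax, which encodes CD11c, did overlap, with 114, 102 and 74.3 CPM against 38.1, 91.9 and 104. Clec10a was found in both classes, with 45 UMIs in 16 C1q-positive cells against 50 UMIs in 7 C1q-negative ones. Siglech also overlapped, and Xcr1, with no UMI in the C1q-positive cells, was at 0 in the C1q-negative cells of 81 weeks as well.

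Not every gene listed for dendritic cells followed. Of 16 genes of the Cd209a type 3 were tested, and Mgl2, a lectin also made by macrophages, was higher in the C1q-positive cells (1066, 1026 and 339 CPM against 75.8, 93.4 and 74.3, log2 fold change 3.37 ± 0.48, adjusted p = 0.0350). Of 16 genes of migrating dendritic cells only Cd83, an activation marker, was tested, and it was higher in the C1q-positive cells with 229, 184 and 196 CPM against 0, 16.97 and 0. Its count ratio was 18.5 (4.79 to 158, adjusted p = 0.0446). Ccr7, the receptor by which dendritic cells leave tissue, had no UMI in any of the 60 cells.

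**Figure D3:**
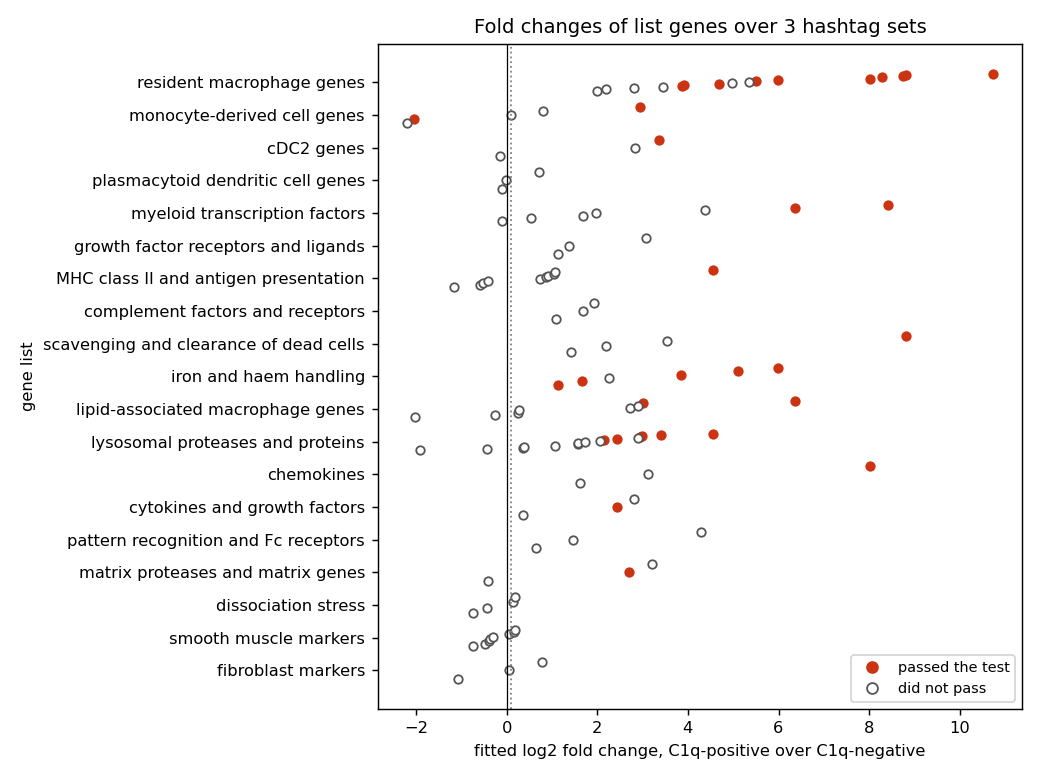
Fitted log2 fold change, C1q-positive over C1q-negative, of each tested gene in the lists with at least 3 tested genes. Filled points passed the test and the dotted line is the median of all 764 genes, 0.09; the points farthest to the right are genes with no UMI in the C1q-negative cells, whose fitted values depend on the fit.

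Chemokines, cytokines and growth factors were thinly sampled. Of 18 chemokine genes 3 were tested and Ccl24 was higher. Of 20 cytokine and growth factor genes 3 were tested and Grn was higher. Il1b had 10 and 5 UMIs in the sets and overlapped between classes. Tnf had no UMI in any of the 60 cells, which allows up to 10.6 CPM in the C1q-positive and 16.1 CPM in the C1q-negative cells, and Cxcl9 had 1. Of 23 interferon response genes 2 were tested, and Ifi27l2a was higher at 1314, 1302 and 1384 CPM against 341, 161 and 372 (log2 fold change 2.46 ± 0.40, adjusted p = 0.0357). Of 19 matrix genes 3 were tested, and Tgfbi, a matrix protein, was higher at 399.9, 643 and 274 CPM against 75.8, 136 and 24.8 (2.71 ± 0.42, adjusted p = 0.0350). The 3 tested complement genes and the 8 tested smooth muscle markers gave no call.

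The count of calls depended on the animals. Without the set of 84 weeks 1 gene was called, without that of 88 weeks none (181 at an unadjusted p under 0.05), and without that of 81 weeks 168; with less than 10% mitochondrial UMIs 3 of 455 genes were called. In every setting that could be fitted, all of the 48 called genes that were tested there kept their direction, and with no replicate block for the animal 82 were higher and 22 lower.

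The C1q-positive cells were themselves divided by MHC class II. Cd74, H2-Aa and H2-Eb1 together reached at least 10 UMIs in 31 of the 42 (73.8%, 58.0 to 86.1) and fewer in 11. Few cells lay between: 10 had 0 to 2 such UMIs, 4 had 3 to 49, and 28 had 50 or more. The low cells were found in every mouse, 2 of 7 at 81 weeks, 3 of 11 at 84 weeks and 5 of 13 at 88 weeks. The 2 of 81 weeks were the least clear, since one had 9 MHC class II and 33 smooth muscle UMIs and the other 7 C1q and 510 smooth muscle UMIs. Without cells of 30 or more smooth muscle UMIs that mouse had 0 low cells. As a background, 6.52% of smooth muscle cells and 5.16% of T cells held a Cd74 UMI.

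In 2 sets there were at least 3 cells of each kind, 8 against 3 at 84 weeks and 8 against 5 at 88 weeks. Of 491 genes tested between them 1 was higher in the MHC class II-high cells (0.204%) and 0 were lower by edgeR, with 43 (8.76%) at an unadjusted p under 0.05 and also 1 and 0 by DESeq2. The called gene was H2-Ab1, which the cut did not use but which belongs to the same gene group. It passed the filter on low counts only through the high cells, so its direction was fixed by entry and is no independent evidence. It had 4546 and 7714 CPM in the high cells and 0 and 26.7 in the low ones (adjusted p = 0.00113, count ratio 333, 59.5 to 13186). On simulated counts the test found 1.1% of 4-fold and 14.0% of 8-fold changes at this size. That simulation set a dispersion (spread between sums) of 0.2 for every gene, changed only abundant genes and had no animal effect. At these settings most differences of that size would be missed, and the spread in the real data may differ.

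Resident macrophage genes were present on both sides of this cut. Of the 20 listed, 16 were tested and none passed, with a median log2 fold change of -1.01 against -0.06 for all genes tested. All 16 fitted values were below 0, but with no low count filter those of Pf4 and Folr2 turned to 0.38 and 0.11. Mrc1 had 2486 and 1226 CPM in the high and 3565 and 2057 in the low cells. Pf4 had 2762 and 3372 against 3565 and 2804 CPM, Lyve1 509.9 and 358 against 877 and 641, and Folr2 871 and 358 against 713 and 694. Within each mouse Mrc1 and Lyve1 were lower in the high cells, while Pf4 and Folr2 differed in sign between the mice. Neither Mrc1 (log2 fold change -0.76 ± 0.26, adjusted p = 0.496) nor Lyve1 (-0.94 ± 0.42, adjusted p = 0.512) passed. Slc40a1 had 85.0 and 51.1 CPM in the high and 274 and 1282 in the low cells, without overlap, and did not pass (log2 fold change -3.38 ± 0.75, adjusted p = 0.277), where 38.5% of all tested genes did not overlap. Of the 48 UMIs behind the 1282 CPM, 2 cells held 21 and 19. Timd4 was in 6 of the 11 low cells (54.5%, 23.4 to 83.3) and 6 of the 31 high ones (19.4%, 7.45 to 37.5), with overlapping intervals. In the 2 sets it had 16 UMIs in the low and 2 in the high cells, 165 and 347 against 21.2 and 25.5 CPM, which did not overlap. That count ratio was 12.4 (2.91 to 111), and the gene was too low to be tested. Cx3cr1, the fractalkine receptor, was in 3 of 11 and 17 of 31. Mmp12, the macrophage elastase, was in 7 of the 31 high cells (22.6%, 9.59 to 41.1) and in 0 of the 11 low ones, which is within the intervals as well. Itgax and Ciita had 14 and 7 UMIs in the high cells of the 2 sets and 0 in the low ones.

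A handful of C1q-positive cells stood apart by Vcam1 and Slc40a1. Both genes reached 5 or more UMIs in 4 of the 42 cells, a limit set after the values were seen. Of these, 2 came from the mouse of 88 weeks and 2 had more than 1 hashtag. The 2 cells of 88 weeks held 33 and 55 Vcam1 UMIs, 21 and 19 of Slc40a1, 4 and 11 of Spic, 19 and 25 of Cd163 and 8 and 18 of Axl. They had 0 Pf4 and 0 MHC class II UMIs, and held 111 and 106 C1q UMIs. Spic is the factor that macrophages of the spleen's red pulp need, Vcam1 an adhesion molecule they share, and Slc40a1 lets them return iron to the blood. The 2 cells with more than 1 hashtag held 7 and 6 Vcam1 UMIs, 0 of Spic, 55 and 4 of Pf4, and 86 and 181 of MHC class II, one of them with 77 T cell UMIs. Vcam1 at 1214 CPM and Spic at 196 CPM in the C1q-positive cells of 88 weeks, with 0 at 81 and 84 weeks, rested on these 2 cells, which held 33 and 55 of the 93 Vcam1 UMIs and all 15 of Spic. Axl, Mertk and Gas6 cannot be read from shares here, since 71.1%, 39.1% and 88.1% of smooth muscle cells held a UMI of them.

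**Figure D4:**
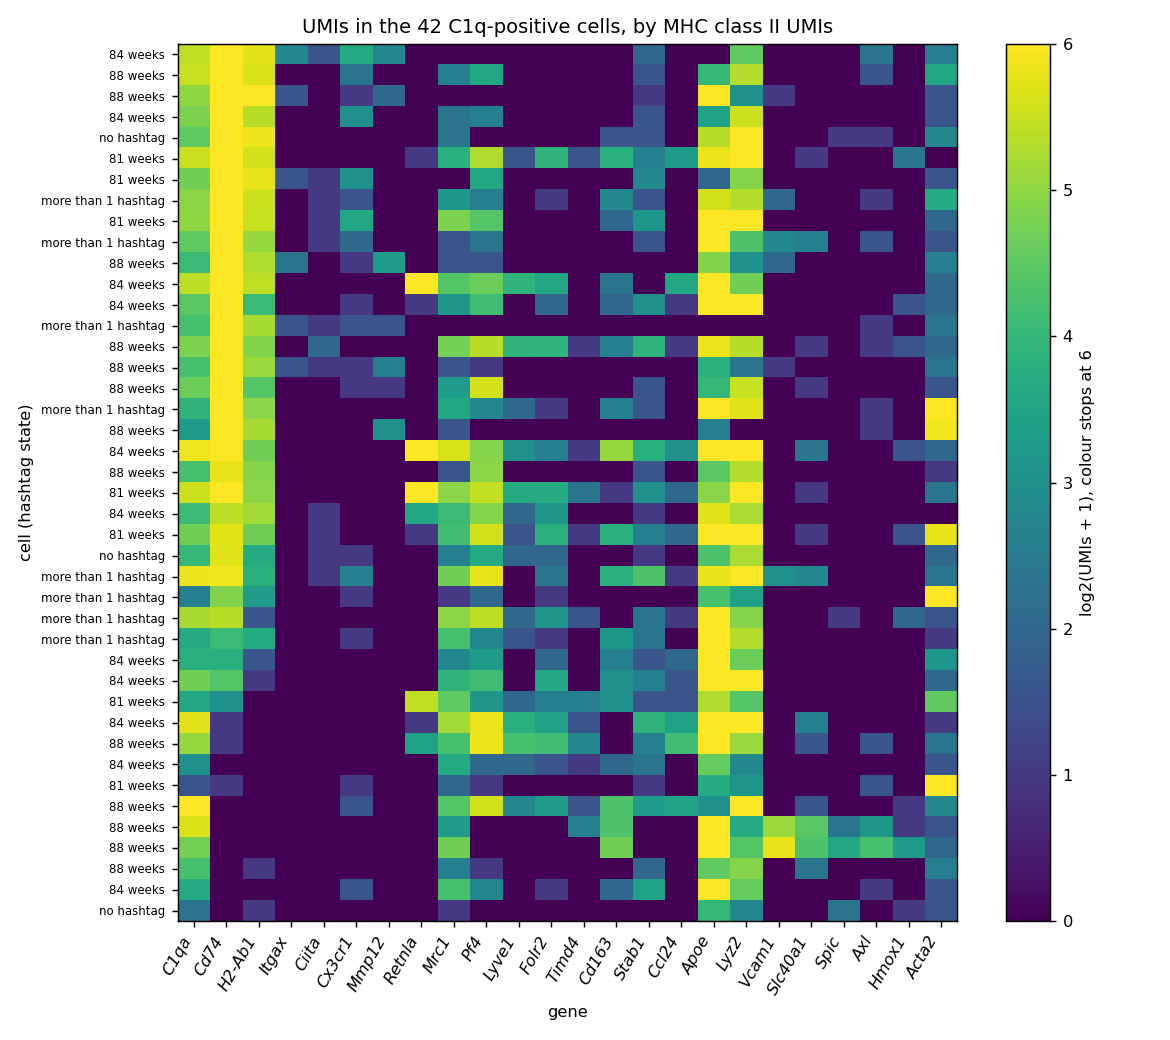
UMIs of 24 genes in the 42 C1q-positive cells as log2 of UMIs plus 1, each row a cell labelled by its hashtag state and ordered from the most MHC class II UMIs to the fewest. Lyve1, Folr2 and Pf4 appear above and below the point where Cd74 and H2-Ab1 fade, and Vcam1, Slc40a1 and Spic are strong in 2 rows near the bottom, both of 88 weeks.

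The 18 C1q-negative cells were of several kinds, so that the sums above mix them. Limits for these were set after the values were seen, so they carry no test. In 5 cells Xcr1, Clec9a and Irf8 were found together, with 1 to 8 Xcr1, 1 to 6 Clec9a and 6 to 27 Irf8 UMIs. They also had 118 to 483 MHC class II UMIs and no Cd209a, Clec10a, Csf1r or C1q. Xcr1 is a chemokine receptor and Clec9a a receptor for dead cells, and both mark the dendritic cells that present antigen to CD8 T cells. All 21 Xcr1 UMIs of the 60 cells were in these 5. Of them 4 were of 84 weeks and 1 of 88 weeks, and 1 held 531 smooth muscle UMIs.

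Another 5 cells held Cd209a and Clec10a, both lectins of dendritic cells that present antigen to CD4 T cells. They had 2 to 13 Cd209a and 4 to 16 Clec10a UMIs, no Irf8 or Xcr1, and 1 to 7 Ccr2 UMIs. Their MHC class II was the highest, 249 to 603 UMIs with a median of 505. Other genes listed for this type were less regular, with Itgax in 3 of the 5 cells and Sirpa and Irf4 in 1 each. Sirpa was found in all 4 Vcam1 Slc40a1 cells and in 23 of the 38 other C1q-positive cells. Of the 5 Cd209a Clec10a cells, 3 came from 81 weeks and 2 from 84 weeks. All 3 C1q-negative cells of 81 weeks were of this kind and none of the 4 of 88 weeks was. With 3 and 4 cells this is not a comparison between the mice.

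In 2 cells, 1 each of 84 and 88 weeks, Siglech had 16 and 5 UMIs, Tcf4 21 and 19, Ly6c2 28 and 6, and Irf8 18 and 5. Siglech and Tcf4 mark plasmacytoid dendritic cells, which release type I interferon. They had 98 and 15 MHC class II UMIs and 14 and 10 of Plac8, and the first also held 11 Clec10a UMIs. The second held the 24 Apoe UMIs named above and 8 of Ccr2. All 34 Ly6c2 UMIs of the 60 cells were in this pair. Siglech alone did not mark them, since 10 C1q-positive cells held 1 to 4 UMIs of it.

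The last 6 cells fitted none of these. One of 88 weeks held 69 Lyz2, 11 Ccr2 and 127 Retnla UMIs with 318 of MHC class II, and one of 84 weeks 37 Lyz2 and 446 MHC class II UMIs. Another of 84 weeks had 102 MHC class II UMIs and 3 of Fscn1. The other 3 had few MHC class II UMIs, 16, 16 and 23, together with 59, 89 and 517 smooth muscle UMIs, and 2 of them, with 25 T cell UMIs each, were called doublets. For these 3 the label of a macrophage or dendritic cell rests on few UMIs, and they held more UMIs of Acta2, Myh11 and Tagln than of Cd74, H2-Aa and H2-Eb1.

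**Figure D5:**
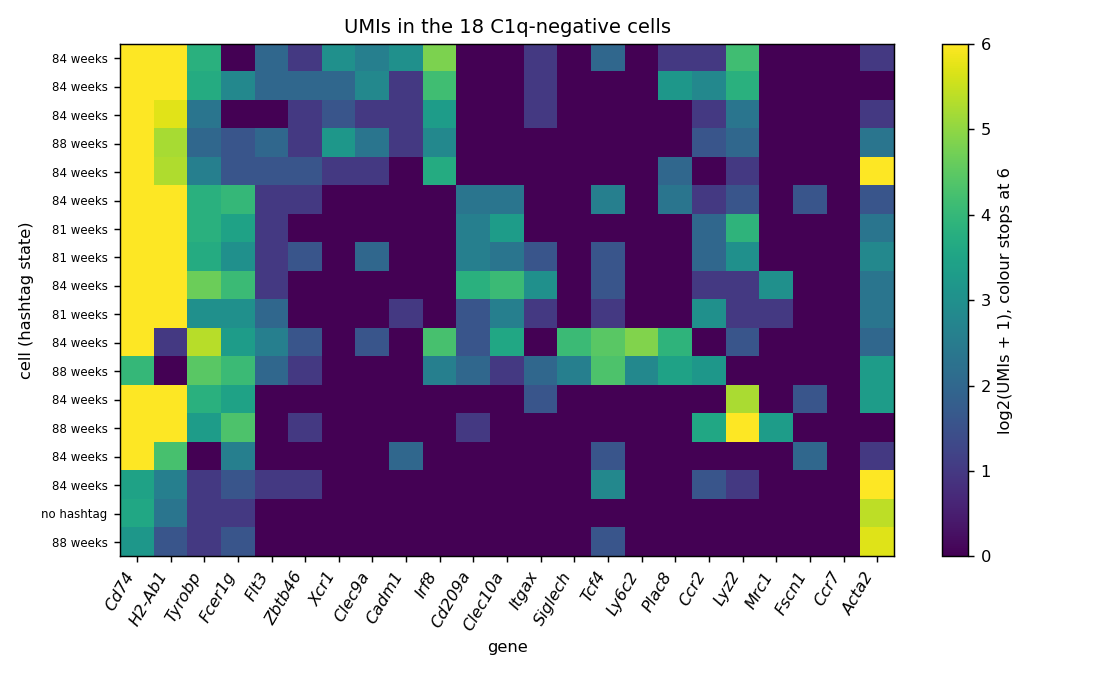
UMIs of 23 genes in the 18 C1q-negative cells as log2 of UMIs plus 1, each row a cell labelled by its hashtag state. From the top are 5 cells with Xcr1, Clec9a and Irf8, 5 with Cd209a and Clec10a, 2 with Siglech, Tcf4 and Ly6c2, and 6 with none of these, of which the lowest 3 hold many Acta2 UMIs.

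The label of macrophages and dendritic cells was set against markers that the rule did not use. Mrc1 was in 38 of the 42 C1q-positive and 3 of the 18 C1q-negative cells. Csf1r, the receptor on which macrophages depend, was part of the rule and was in 39 and 6. Adgre1 was in 29 and Fcgr1, the high-affinity IgG receptor, in 12 of the 42. Neutrophil markers summed to 2 and 1 UMIs in the classes, with 9 of 10 genes at 0 in each. Of the monocyte genes Chil3 had no UMI, but Ccr2 had 46 UMIs in the C1q-negative and 6 in the C1q-positive sets. The 2 Siglech cells held all 34 Ly6c2 UMIs and 24 of Plac8, and the 5 Xcr1 cells 12 of Plac8.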

How the data were processed

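RNA was counted in single cells of 3 pooled, hashtagged mice, and the 8 libraries (4 of gene expression, 4 of hashtags) were deposited as 1 matrix of 32285 genes. The deposited values are raw UMI counts made with Cell Ranger, version 6.0.1 per the file headers, on mm10 per the submitters' processing notes, which also name Seurat 4.0.5 without its step. The labels do not say whether counting used strand. The labels' ages were tied to hashtags by the deposited reference table.

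From these counts, cells were filtered and selected as the report states, and hashtags were called with HTODemux (Seurat 5.3.0, quantile 0.99). Scrublet (scanpy 1.11.5) called 0 of 11831 cells doublets at its own threshold, so the top 6% by score (682 cells) were used as calls in an alternative only. Summed counts were tested with edgeR 4.0.16 (TMM, filterByExpr, quasi-likelihood F test, animal as a block, Benjamini-Hochberg adjustment over all genes tested) in R 4.3.3. The same animal gives both sums of a set, which is where the pairing comes from; deviations from the class means correlated between paired sums by -0.43, -0.30 and -0.25. The design asked for 5 cells of each class in a set, which left 1 set in each comparison, so a limit of 3 cells was used. At this size, the test found 72.3% of 4-fold and 97.7% of 8-fold changes in simulated counts of the C1q comparison (811 genes tested). Both simulations set a dispersion of 0.2 for every gene, changed only abundant genes and had no animal effect, so these shares hold for those settings only. Total counts per sum were 52508, 65308 and 76589 UMIs in the C1q-positive and 26397, 117833 and 40350 in the C1q-negative sets. Counting intervals are 95% and exact, and cover counting error only. A fold against a class with no UMI uses a floor of 3 counts over the class. T cells and smooth muscle cells of the background shares are cells with at least 3 T cell or 10 smooth muscle UMIs. Promoters are RefSeq's on GRCm38.p6. Results for 1 of the genes set to be named are not reported here. No promoter of C1qa or H2-Ab1 is shown.

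The cells, the 34 gene lists and the 30 genes always named were chosen with earlier results of these data known. Further named genes were those that changed most among a list's called genes, 2 in each direction (1 in the MHC class II comparison) with at least 100 CPM in the higher class, and 5 each way outside the lists. Genes beyond these, and the limits of the cell groups by Xcr1, Cd209a, Siglech and Vcam1, were chosen after values were seen. Alternatives were the scaling, the low count filter, the block, DESeq2 1.42.0, doublets, cells with other RNA, depth, mitochondrial share, the C1q limit, thinning and leaving out a set.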

Additional observations from a re-analysis of the deposited data

How the results depend on the processing

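Against 41 higher and 7 lower genes, the C1q comparison gave 92 and 18 with no low count filter, 72 and 25 without cells of 30 or more smooth muscle UMIs (chosen after seeing the data), 93 and 34 with classes from thinned cells, 56 and 13 with doublets removed, and 2 and 1 under 10% mitochondrial UMIs, where 455 genes were tested. With no replicate block for the pairing by animal it gave 82 and 22. Leaving out 1 set gave 0 to 126 higher and 0 to 42 lower genes. RLE scaling gave 39 and 5 and DESeq2 47 and 7. No gene called in the reported comparison changed direction in any of these. Leaving out 84 weeks turned Irf8 to 0.81, and leaving out 81 weeks let it pass at -1.74 (edgeR adjusted p = 0.0313, against 0.677). The cause of these shifts was not tested.

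The MHC class II comparison gave 4 higher and 1 lower gene with no low count filter and 3 and 3 without cells of 30 or more smooth muscle UMIs. With no filter Pf4, Folr2 and Apoe turned to 0.38, 0.11 and 0.21. It was 1 and 0 with no replicate block. Other alternatives left fewer than 2 sets with 3 cells of each kind: removing doublets, cells with T cell RNA or cells of 10% or more mitochondrial UMIs, and leaving out 84 or 88 weeks. The set of 81 weeks was not in that comparison. In both comparisons so did 5 cells per set, and in the C1q comparison the planned limit of 5 smooth muscle UMIs. A set of cells with no hashtag had 1 C1q-negative cell.

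Within the same 60 cells, which were not chosen anew, the C1q-positive share stayed between 68.3% and 71.7% over class limits of 3 to 10 C1q UMIs. With 18 C1q-negative cells, genes of few UMIs, among them most dendritic cell genes, could not be tested.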

Other observations

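Dividing cells were rare. Mki67 and Top2a, which mark division, had 15 and 9 UMIs in 1 Cd209a Clec10a cell of 81 weeks, 9 and 9 in 1 C1q-positive cell of 84 weeks that was called a doublet, and 3 and 3 in 1 of 81 weeks. Of the T cells, 39.6% held a Mki67 UMI, and the part of T cell RNA in these cells was not tested.

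Retnla, a secreted protein of alternatively activated macrophages, was concentrated in few cells. It had 411 UMIs in 10 of the 42 C1q-positive cells, with at most 128 in a cell, and 128 UMIs in 2 C1q-negative cells. It was in 7 of the 31 MHC class II-high and 3 of the 11 MHC class II-low C1q-positive cells (22.6% and 27.3%), so it lay on both sides of that division. Mmp9, a gelatinase, had 40 UMIs in 12 of the 42 C1q-positive cells and none in the C1q-negative ones.

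F13a1, which encodes the A chain of coagulation factor XIII, had 374 UMIs in 24 of the 42 C1q-positive cells. Igf1, the growth factor, had 100 UMIs in 27 of them, and Cd209f, a lectin related to Cd209a, 91 UMIs in 10. Cd14, the co-receptor for endotoxin, had 47 UMIs in the C1q-positive cells and 0 in the C1q-negative ones.

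Haemoglobin RNA was uneven. Hbb-bs, adult beta globin, had 1524 UMIs in 1 C1q-positive cell of 84 weeks, 1690 in 1 with no hashtag that was called a doublet, and 516 in 1 C1q-negative cell. Csf1 and Il34, the ligands of the receptor that Csf1r encodes, had 4 and 0 UMIs over all 60 cells.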
